A study of Mus musculus with 9 samples.

Results

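RNA immunoprecipitation sequencing (RIP-seq) of the newborn mouse cortex captured curated noncoding RNAs beside the mRNAs for which the experiment was designed. These noncoding RNAs were taken as the rows of the deposited table with a curated noncoding accession whose gene had no curated or predicted coding row, without rRNA, with a summed count of 20 or more over the 9 libraries. Norad, H19, Malat1, Neat1, Miat, Kcnq1ot1, Meg3, Rian, Mirg, Gas5 and genes named Snhg were left out. The rule gave 1811 of 107384 rows, from 1611 genes. Of these genes, 1165 were long noncoding RNAs (lncRNAs) known by a clone or model name, 204 were transcribed pseudogenes, 123 were antisense or opposite-strand RNAs and 81 were lncRNAs with a given name. The others were 17 small structural RNAs, 10 microRNA host genes, 7 small nucleolar or Cajal body RNAs (snoRNAs, scaRNAs), 1 microRNA hairpin and 3 genes of other types. All 9 libraries were made from cytoplasmic lysate of newborn cortex, from mice heterozygous for a Celf2 knock-in (KI) allele, CELF2 p.R493H, at postnatal day 0, so the controls carried the same allele and no wild-type cortex was analyzed. The 3 conditions were precipitation with rabbit anti-CELF2 antibody (CELF2-KI RIP), precipitation with normal rabbit IgG (IgG RIP), each with 10 µg of antibody for 3 hours, and the unprecipitated fraction (input), with 3 biological replicates each. The lysate was a mixture of neurons, radial glia, astrocytes, oligodendrocyte precursors, microglia and endothelial cells, and whether the antibody distinguishes the mutant from the wild-type protein is not stated.

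CELF2 is an RNA-binding protein with RNA recognition motifs that favor U- and UGU-rich RNA, and it acts on splicing in the nucleus and on stability and translation in the cytoplasm. Noncoding RNAs carry out very different work. The 7SL, 7SK, RNase P and RNase MRP RNAs are transcribed by RNA polymerase III, fold tightly and spend their lives inside fixed protein complexes, whereas snoRNAs guide modification or cleavage of other RNAs and are released from introns. lncRNAs are spliced and polyadenylated much like mRNAs, yet many stay at or near chromatin, where RNAs such as Xist and Airn silence genes of their own chromosome.

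The first 50 transcribed bases of several RNAs to which the results return are given here, 5 RNAs whose level in CELF2-KI RIP exceeded both controls followed by 2 that were lower, so that the letters at their 5′ ends can be seen beside their values. They were read from RefSeq sequences on GRCm38.p6, 5′ to 3′ along the RNA, with TGTGT or TGTTT in capitals.
Oip5os1 (chr2:119594296-119594345, plus strand): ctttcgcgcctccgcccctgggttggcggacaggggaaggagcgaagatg
Cep83os (chr10:94688564-94688613, minus strand): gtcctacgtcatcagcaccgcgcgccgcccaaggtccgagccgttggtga
5930403L14Rik (chr4:154636318-154636367, minus strand): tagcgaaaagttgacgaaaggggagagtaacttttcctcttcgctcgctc
9330102E08Rik (chr6:128183754-128183803, minus strand): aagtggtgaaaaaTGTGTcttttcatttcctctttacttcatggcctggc
Dlx6os1, outer start (chr6:6869484-6869533, minus strand): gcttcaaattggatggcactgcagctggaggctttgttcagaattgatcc
Dlx6os1, inner start (chr6:6861634-6861683, minus strand): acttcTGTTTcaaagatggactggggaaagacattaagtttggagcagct
Zfas1 (chr2:167062934-167062983, plus strand): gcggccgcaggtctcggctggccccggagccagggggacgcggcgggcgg
1110038B12Rik (chr17:34952422-34952471, minus strand): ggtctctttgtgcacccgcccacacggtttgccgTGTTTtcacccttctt
Such a window was at hand for 791 of the 1157 noncoding genes that were tested. TGTGT or TGTTT, searched on the transcribed strand only, occurred in 70 of these 791 windows (8.85%) and in 9.34% of the windows of all 27025 genes. These shares used 1 window per gene. Counting a called gene if any of its windows held them, they occurred in 2 of 14 RNAs called higher than both controls and in 1 of 6 called lower than both. The 2 measures are unlike, so these counts cannot be set directly beside the shares. For Dlx6os1 the inner start held TGTTT and the outer start did not. Both of these starts lay inside the annotated span of Dlx6os1, downstream of its 5′ end. These windows hold only the first bases of each RNA, and the bodies of the transcripts were not searched.

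The libraries held between 15919600 and 105116427 estimated counts, of which the noncoding RNAs made up 1.20% to 1.49% outside rRNA in CELF2-KI RIP, 3.21% to 3.68% in IgG RIP and 8.65% to 13.8% in input. One IgG library stood apart. IgG RIP 3 had 10.98% rRNA counts against 35.0% and 33.0% in the other IgG libraries, and its summed level of 8 nuclear-retained RNAs was 6871 against 11030 and 10810. Levels are given in CPM, with counts scaled to the TMM-adjusted protein-coding total of the library, and no level is compared between genes because the length of each transcript was not used. Of the noncoding genes, 1157 reached 0.5 CPM in at least 3 libraries and were tested together with all other genes, 18783 in all. A gene was called when it differed at least 2-fold at an edgeR quasi-likelihood adjusted p below 0.01.

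The comparison of CELF2-KI RIP with IgG RIP asked which RNAs came down with CELF2 rather than with beads and unrelated antibody. Few noncoding RNAs passed this test. Only 31 of 1157 were higher in CELF2-KI RIP than in IgG RIP (2.68%), where 11.1% of all genes tested were, and 101 were lower (8.73%, against 12.4% of all genes). Against input, 263 were higher (22.7%, against 16.7% of all genes) and 31 were lower (2.68%, against 12.8%). IgG RIP itself differed from input. Its level was higher for 405 noncoding genes (35.0%), where 13.7% of all genes were higher, and 16 were lower (1.38%, against 4.29%). The median log2 fold change of the noncoding genes was -0.43 for CELF2-KI RIP over IgG RIP, 0.96 for CELF2-KI RIP over input and 1.27 for IgG RIP over input, and that of all genes was -0.14, 0.39 and 0.16. In this mixed tissue, the cell type from which a precipitated RNA came cannot be told. The 3 comparisons share libraries and are therefore not independent of each other.

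Only 20 noncoding genes were higher than both controls (1.73%, against 6.3% of all genes) and 19 were lower than both (1.64%, against 7.77%). For 69 genes the 3 CELF2-KI RIP libraries all exceeded the 6 controls (5.96%, against 21.2% of all genes), and for 56 genes they were all below them (4.84%, against 16.6%). The reverse pattern was common. All 3 IgG RIP libraries lay above the other 6 for 219 genes (18.9%, against 11.9%), and all 3 inputs lay below the other 6 for 456 genes (39.4%, against 22.9%). The balance of calls rested on the scaling. With normalization factors taken from all genes instead of protein-coding genes, calls against IgG RIP came to 20 higher and 177 lower, those against input to 113 higher and 49 lower, and those against both to 6 higher and 28 lower, while the median of all genes moved to -0.35, 0.00 and -0.02. The number higher in IgG RIP than in input was 381 with that scaling. Without IgG RIP 3 that number was 562, and without input 1, 2 or 3 it was 207, 253 or 220. The number lower in IgG RIP than in input, 16 with all libraries, was 25 without IgG RIP 3 and 8 without any 1 input. Single libraries also moved the calls of CELF2-KI RIP. The 263 higher than input came to 123 and 164 without CELF2-KI RIP 2 or 3, to 116, 122 and 119 without input 1, 2 or 3, and to 423 without IgG RIP 3. The 101 lower than IgG RIP came to 60 and 49 without CELF2-KI RIP 1 or 3, to 59 and 66 without IgG RIP 1 or 2, and to 165 without IgG RIP 3. The 31 lower than input came to 51 without IgG RIP 3.

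**Figure D1:**
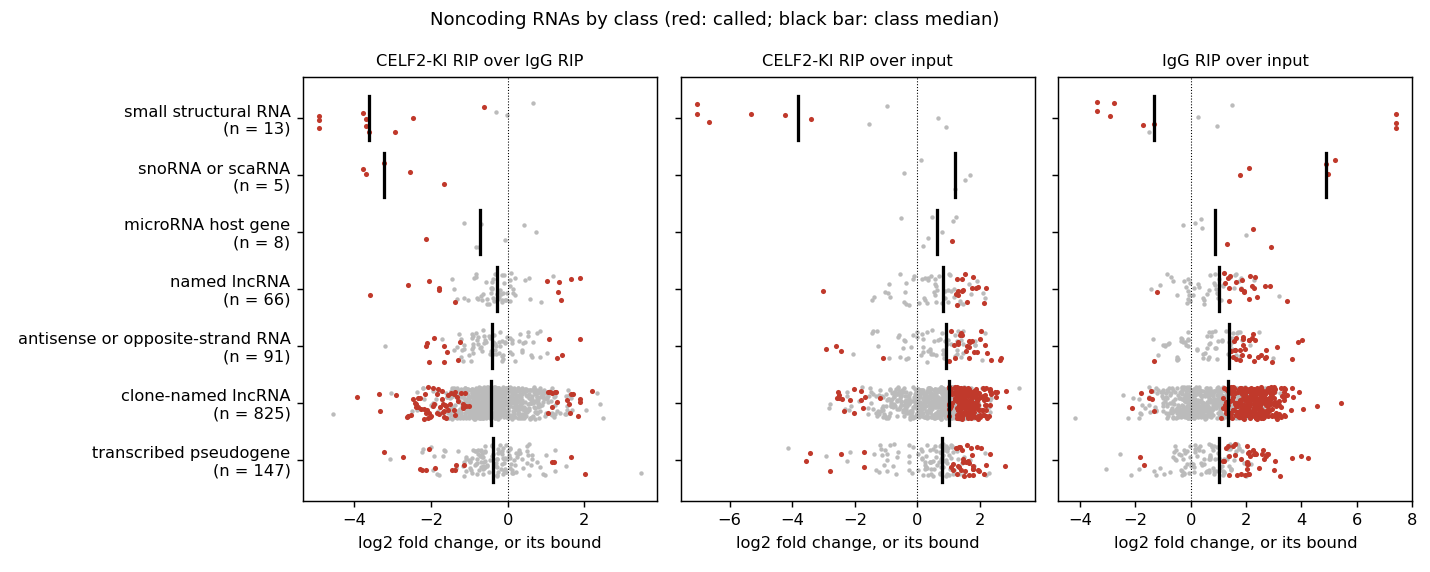
Each point is 1 tested noncoding gene, placed by its log2 fold change (x axis) in its RNA class (rows), for the 3 comparisons of conditions with 3 libraries each. Red points passed the call, black bars are class medians, and genes at 3 counts or fewer in every library of 1 condition are drawn at the bound that this count allows (left out where both conditions were so low). The small structural RNAs lie far to the left in CELF2-KI RIP over IgG RIP, and the lncRNA classes and pseudogenes are shifted to the right in IgG RIP over input.

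The small structural RNAs had a class median log2 fold change of -3.68 in CELF2-KI RIP over IgG RIP, and the scaRNAs and snoRNAs had one of -3.22. Of 13 tested, 10 were lower in CELF2-KI RIP than in IgG RIP (76.9%, against 12.4% of all genes). Lower than both controls were 6 (46.2%, against 7.77% of all genes), and 0 were higher than either. These counts and the class median include 2 rows of 7SL and 3 of U3 whose values were identical, so the 2 class medians are not ranked. 7SL, the RNA scaffold of the signal recognition particle, has the rows Rn7s1 and Rn7s2, which held identical values because their reads cannot be told apart. Each row of 7SL was at 441, 179 and 332 CPM in the CELF2-KI RIPs, 4217, 3091 and 4889 CPM in the IgG RIPs and 32220, 61240 and 32510 CPM in the inputs. No library of any condition overlapped another condition. The difference between CELF2-KI RIP and IgG RIP was large (log2 fold change -3.68 ± 0.38 SE, edgeR adjusted p = 3.6e-05), and that between CELF2-KI RIP and input was larger (log2 fold change -7.05 ± 0.45 SE, edgeR adjusted p = 1.92e-06). 7SK (Rn7sk), which holds the elongation factor P-TEFb inactive in the nucleus, was at 692, 459.5 and 342 CPM in the CELF2-KI RIPs, 5304, 4429 and 8489 CPM in the IgG RIPs and 16620, 16900 and 25840 CPM in the inputs. It fell by 3.61 on the log2 scale against IgG RIP and by 5.31 against input (edgeR adjusted p = 2.16e-05 and 3.29e-06). These RNAs, with Rpph1 and Rmrp, made up most of what the noncoding RNAs contributed to the input. Without them the noncoding share outside rRNA was 1.07% to 1.43% in CELF2-KI RIP, 1.47% to 2.54% in IgG RIP and 0.675% to 0.741% in input.

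Rpph1, the RNA of RNase P that trims the 5′ end of tRNA precursors, was at 71.8, 31.6 and 36.4 CPM in the CELF2-KI RIPs, 664, 525 and 702 CPM in the IgG RIPs and 3433, 6231 and 4572 CPM in the inputs (log2 fold change -3.76 ± 0.34 SE, edgeR adjusted p = 1.77e-05 against IgG RIP). Rmrp, the RNA of the related RNase MRP that cuts rRNA precursors, was at 143, 79.5 and 115 CPM in the CELF2-KI RIPs, 1199, 452 and 905 CPM in the IgG RIPs and 1685, 2370 and 2266 CPM in the inputs (log2 fold change -2.92 ± 0.35 SE, edgeR adjusted p = 7.46e-05 against IgG RIP). In both, every IgG RIP library lay between the CELF2-KI RIPs and the inputs. Rprl3, a copy related to these RNAs, was not detected in any CELF2-KI RIP library and was at 0.250, 0.297 and 0.573 CPM in the IgG RIPs and 2.13, 3.01 and 2.60 CPM in the inputs, so it was at least 1.518-fold lower than in IgG RIP and at least 10.48-fold lower than in input at a floor of 3 counts per library. The telomerase RNA Terc behaved otherwise. It was at 0.560, 1.92 and 1.07 CPM in the CELF2-KI RIPs, 11.6, 4.26 and 3.87 CPM in the IgG RIPs and 2.43, 2.60 and 1.99 CPM in the inputs, lower in CELF2-KI RIP than in IgG RIP (log2 fold change -2.47 ± 0.53 SE, edgeR adjusted p = 0.00315) but not called against input (log2 fold change -0.97, edgeR adjusted p = 0.128).

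The spliceosomal RNAs gave no call. Rnu2-10, a U2 RNA, was at 104, 30.7 and 56.9 CPM in the CELF2-KI RIPs, 49.7, 38.6 and 31.8 CPM in the IgG RIPs and 20.1, 80.3 and 0 CPM in the inputs, and Rnu1a1, a U1 RNA, reached at most 1.19 CPM. The inputs of Rnu2-10 ranged from 0 to 80.3 CPM, so no difference was detectable with this spread. The U3 rows Rnu3b1, Rnu3b2 and Rnu3b3 also held identical values. U3 guides early cuts of the rRNA precursor in the nucleolus. These rows were at 0 in every CELF2-KI RIP and input library and at 9.82, 9.31 and 3.01 CPM in the IgG RIPs, at least 29.99-fold lower in CELF2-KI RIP and at least 171.4-fold higher in IgG RIP than in input at the same floor. A zero here is uncertain, because the related copy Rnu3b4 can take reads of the same RNA. Rnu3b4 was at 6.80, 2.31 and 1.78 CPM in the CELF2-KI RIPs, 10.7, 0 and 0 CPM in the IgG RIPs and 5.02, 22.3 and 4.33 CPM in the inputs.

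**Figure D2:**
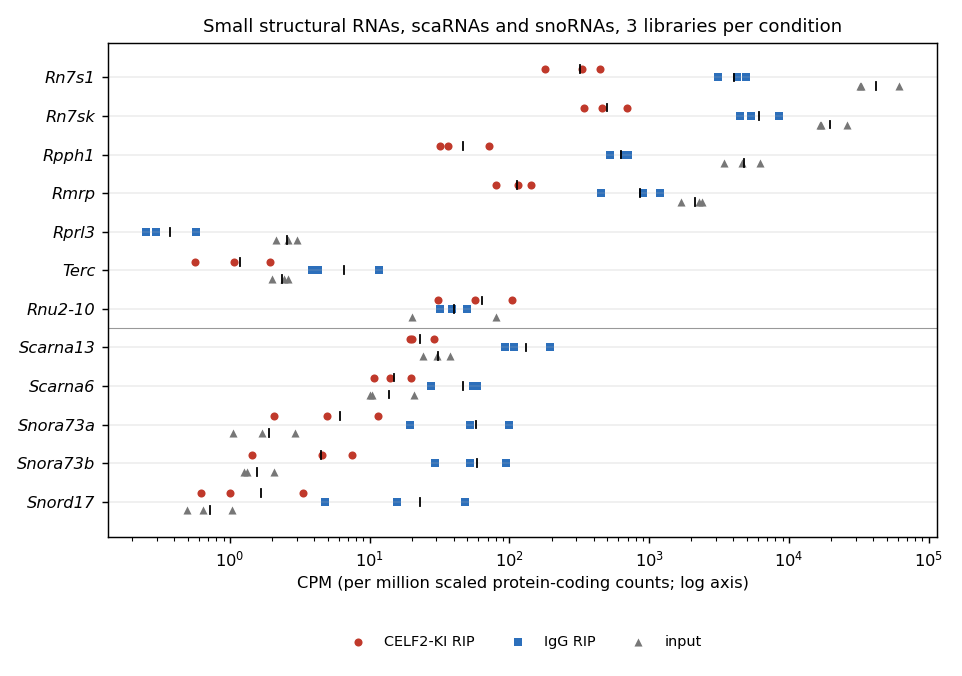
Level of each small structural RNA (upper rows) and each scaRNA or snoRNA (lower rows) in every library, in CPM on a log axis. Symbols are single libraries, 3 per condition, short black bars are condition means, and libraries at 0 (Rprl3 in CELF2-KI RIP, Rnu2-10 in input 3) are not drawn. The structural RNAs Rn7s1, Rn7sk, Rpph1 and Rmrp rank CELF2-KI RIP below IgG RIP below input, while Terc, the scaRNAs and the snoRNAs peak in IgG RIP.

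The 5 tested scaRNAs and snoRNAs had every IgG RIP library above all other libraries. This order was not theirs alone. It also held for 4 of the 13 small structural RNAs (30.8%), Terc and the U3 rows Rnu3b1, Rnu3b2 and Rnu3b3, and for 11.9% of all genes. All 5 were called higher in IgG RIP than in input, beside 13.7% of all genes. All 5 were lower in CELF2-KI RIP than in IgG RIP, beside 12.4% of all genes. Between CELF2-KI RIP and input 0 were called, beside 16.7% of all genes higher and 12.8% lower. Scarna13, which guides modification of spliceosomal RNA in Cajal bodies, was at 28.8, 19.6 and 19.98 CPM in the CELF2-KI RIPs, 195, 93.4 and 108 CPM in the IgG RIPs and 24.0, 37.5 and 30.3 CPM in the inputs (log2 fold change 2.11 ± 0.29 SE, edgeR adjusted p = 0.000453 for IgG RIP over input). Scarna6 was at 19.8, 10.8 and 13.9 CPM in the CELF2-KI RIPs, 54.5, 27.4 and 58.5 CPM in the IgG RIPs and 9.99, 20.8 and 10.3 CPM in the inputs. With the replicate number as a block, neither call of Scarna6 was kept (edgeR adjusted p = 0.0116 for CELF2-KI RIP over IgG RIP and 0.0129 for IgG RIP over input). Snora73a and Snora73b are neighboring copies of the snoRNA needed for 18S rRNA processing. Snora73a was at 11.4, 4.93 and 2.05 CPM in the CELF2-KI RIPs, 100, 52.4 and 19.5 CPM in the IgG RIPs and 1.70, 2.94 and 1.05 CPM in the inputs, and Snora73b was at 7.52, 4.54 and 1.43 CPM in the CELF2-KI RIPs, 93.7, 52.1 and 29.1 CPM in the IgG RIPs and 1.32, 2.08 and 1.26 CPM in the inputs. The rise of Snora73b in IgG RIP over input was among the 5 largest (log2 fold change 5.22 ± 0.58 SE, edgeR adjusted p = 0.000188). Snord17 was at 3.36, 1.001 and 0.625 CPM in the CELF2-KI RIPs, 47.7, 15.8 and 4.80 CPM in the IgG RIPs and 0.492, 1.03 and 0.647 CPM in the inputs. The 3 IgG libraries differed widely among themselves for Snord17 and the Snora73 copies, with IgG RIP 3 lowest in each.

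The 20 RNAs higher than both controls came to 13 clone-named lncRNAs, 4 opposite-strand RNAs, 2 transcribed pseudogenes and 1 named lncRNA. Their log2 fold changes ran from 1.06 to 2.19 over IgG RIP and from 1.003 to 2.19 over input. 2810013P06Rik had the largest rise over IgG RIP and was at 22.4, 40.4 and 26.5 CPM in the CELF2-KI RIPs, 4.63, 7.63 and 7.45 CPM in the IgG RIPs and 10.2, 10.6 and 8.39 CPM in the inputs (log2 fold change 2.19 ± 0.27 SE, edgeR adjusted p = 9.96e-05). Cep83os, transcribed next to the centriole gene Cep83, was at 15.0, 21.3 and 15.4 CPM in the CELF2-KI RIPs, 4.69, 4.86 and 4.58 CPM in the IgG RIPs and 5.26, 6.29 and 4.72 CPM in the inputs (log2 fold change 1.87 ± 0.21 SE, edgeR adjusted p = 5.36e-05 over IgG RIP, and log2 fold change 1.67 over input). 5930403L14Rik, which lies within Prdm16 on the same strand, had the largest rise over input, at 85.2, 185 and 114 CPM in the CELF2-KI RIPs, 52.7, 42.1 and 29.6 CPM in the IgG RIPs and 31.1, 27.7 and 25.3 CPM in the inputs (log2 fold change 2.19 ± 0.29 SE, edgeR adjusted p = 0.00012). Reads of 5930403L14Rik can be shared with Prdm16, a transcription factor gene of radial glia, whose log2 fold change was 1.17 over input, which was called, and 0.56 over IgG RIP, which was not.

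Further clone-named RNAs of this group differed in which control was lower. 1500011B03Rik was at 105.4, 124 and 97.7 CPM in the CELF2-KI RIPs, 27.3, 37.9 and 34.5 CPM in the IgG RIPs and 54.3, 55.0 and 52.2 CPM in the inputs (log2 fold change 1.72 ± 0.15 SE, edgeR adjusted p = 1.49e-05 over IgG RIP). 4930413G21Rik, which lies opposite Rbbp6, was at 33.5, 54.6 and 48.0 CPM in the CELF2-KI RIPs, 18.1, 18.2 and 19.2 CPM in the IgG RIPs and 14.8, 14.9 and 14.0 CPM in the inputs (log2 fold change 1.64 ± 0.18 SE, edgeR adjusted p = 3.9e-05 over input). The CELF2-KI RIPs lay above all controls in both. A330102I10Rik was at 9.52, 13.6 and 11.4 CPM in the CELF2-KI RIPs, 2.06, 2.18 and 5.37 CPM in the IgG RIPs and 3.81, 4.20 and 4.51 CPM in the inputs, and D130017N08Rik was at 9.36, 15.3 and 10.3 CPM in the CELF2-KI RIPs, 4.38, 3.17 and 3.58 CPM in the IgG RIPs and 5.53, 5.12 and 6.61 CPM in the inputs. The pseudogenes AI854703 and B630019K06Rik averaged 34.3 ± 3.33 and 40.2 ± 7.25 CPM (SD, n = 3) in CELF2-KI RIP. In IgG RIP they averaged 10.9 ± 2.95 and 18.1 ± 0.661 CPM, and in input 15.6 ± 0.712 and 16.5 ± 0.516 CPM. The other clone-named RNAs higher than both were A830082N09Rik, 9330102E08Rik, Gm14204, E130307A14Rik, 4933404O12Rik, 6430411K18Rik and AW011738. They were named after their values were seen, and Gm14204 lies opposite the inhibitory transporter gene Slc32a1.

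CELF2-KI RIP 2 was the highest of the 3 CELF2-KI RIP libraries for all 20 of these RNAs, and leaving it out brought the number higher than both controls from 20 to 11. It was 12 without input 2. In every fit that left out 1 library, 9 of the 20 were called (Oip5os1, 5930403L14Rik, 4930413G21Rik, 2810013P06Rik, A830082N09Rik, E130307A14Rik, Cep83os, Peg13 and B630019K06Rik). Cep83os was the 1 RNA also called when the test itself asked for more than a 2-fold difference. With factors from all genes, 6 of the 20 were called, and with total counts as the scale, 3 (2810013P06Rik, Cep83os and 5930403L14Rik). Among mRNAs that mark cortical neurons, Tbr1 and Bcl11b were also called above both controls, Tbr1 by 1.38 (IgG RIP) and 1.05 (input) and Bcl11b by 1.02 (IgG RIP) and 1.18 (input) on the log2 scale, while Neurod6, Gad1 and Gad2 were not called in either comparison. Their part in the 20 rises was not tested.

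**Figure D3:**
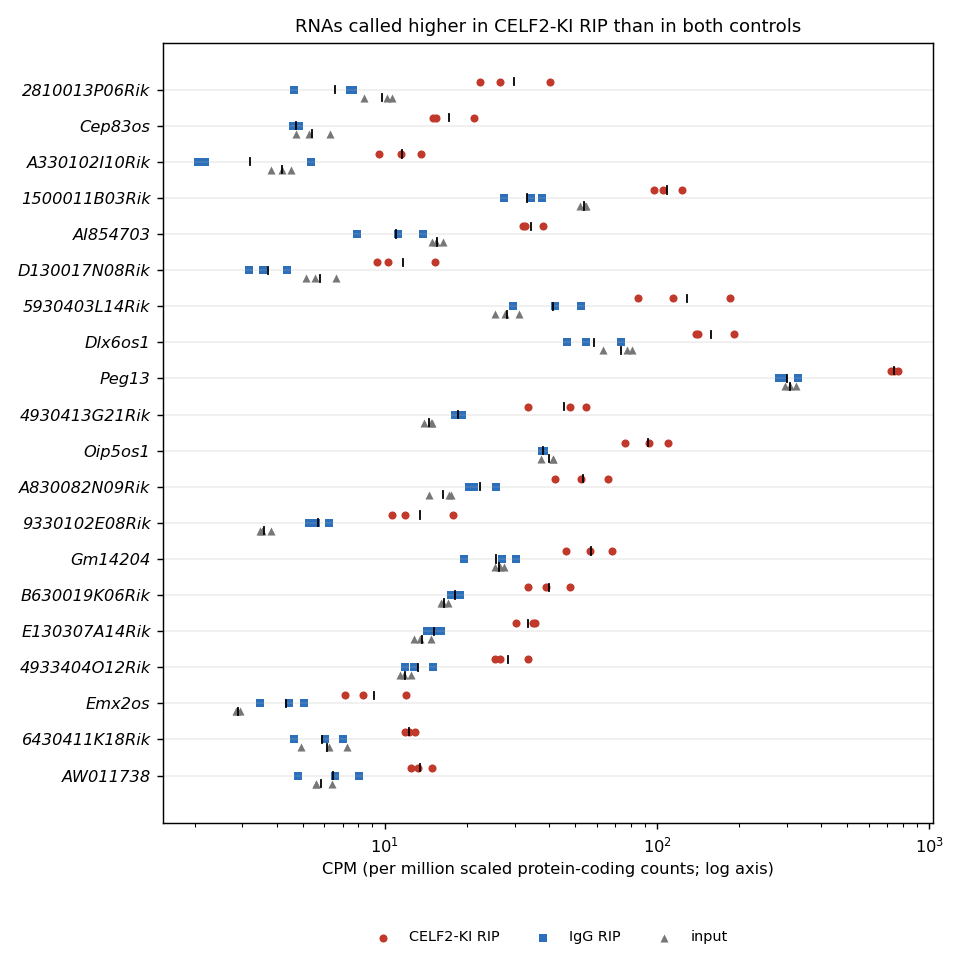
The 20 noncoding RNAs called above both controls, ordered by their fold change over IgG RIP, with the level in every library in CPM on a log axis. Symbols are single libraries, 3 per condition, and short black bars are condition means. In each row the CELF2-KI RIP libraries lie to the right of all 6 control libraries.

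Among 15 tested lncRNAs of neural development, Dlx6os1, Oip5os1 and Emx2os were higher than both controls, Pantr1 was lower than both, and the other 11 were not called against both. Of all genes tested, 6.3% were higher and 7.77% lower than both, so nothing is read from these small counts about the list. Dlx6os1, also called Evf2, is made at the Dlx5 and Dlx6 enhancers of the forebrain and tunes Dlx genes in interneuron precursors. It was at 141, 192 and 139 CPM in the CELF2-KI RIPs, 73.9, 54.7 and 46.7 CPM in the IgG RIPs and 81.0, 77.5 and 63.4 CPM in the inputs (log2 fold change 1.43 ± 0.20 SE, edgeR adjusted p = 0.00019 over IgG RIP, and log2 fold change 1.09 over input). The lowest CELF2-KI RIP was above the highest control. Dlx6 itself, which Dlx6os1 overlaps, had log2 fold changes of -0.51 over IgG RIP and 0.02 over input, neither of them called. Dlx1as, from the sister Dlx locus, was at 86.3, 60.0 and 69.0 CPM in the CELF2-KI RIPs, 39.7, 38.05 and 59.2 CPM in the IgG RIPs and 62.4, 62.5 and 64.9 CPM in the inputs and was not called (edgeR adjusted p = 0.0157 over IgG RIP and 0.416 over input).

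Oip5os1, known as Cyrano, is a conserved neuronal lncRNA with a site that directs the decay of miR-7. It was at 76.1, 109.5 and 93.1 CPM in the CELF2-KI RIPs, 37.7, 38.3 and 37.8 CPM in the IgG RIPs and 41.4, 41.5 and 37.5 CPM in the inputs (log2 fold change 1.29 ± 0.14 SE, edgeR adjusted p = 4.7e-05 over IgG RIP and log2 fold change 1.21 over input). Emx2os, opposite the cortical patterning gene Emx2, was at 7.12, 11.9 and 8.30 CPM in the CELF2-KI RIPs, 5.07, 3.47 and 4.44 CPM in the IgG RIPs and 2.94, 2.86 and 2.85 CPM in the inputs (log2 fold change 1.07 ± 0.25 SE, edgeR adjusted p = 0.00565 over IgG RIP). With the replicate number as a block, Emx2os over IgG RIP was not called (edgeR adjusted p = 0.0150), nor was D130017N08Rik over input (edgeR adjusted p = 0.0119). Pantr1, a neighbor of the upper-layer neuron gene Pou3f3, ran the opposite way. It was at 2.48, 3.00 and 2.68 CPM in the CELF2-KI RIPs, 8.95, 8.42 and 10.6 CPM in the IgG RIPs and 22.3, 19.2 and 24.4 CPM in the inputs (log2 fold change -1.78 ± 0.19 SE, edgeR adjusted p = 4.08e-05 against IgG RIP, and log2 fold change -3.01 ± 0.19 SE, edgeR adjusted p = 1.85e-06 against input). Sox1ot, which overlaps Sox1, was at 86.9, 119 and 99.7 CPM in the CELF2-KI RIPs, 125, 129.8 and 82.6 CPM in the IgG RIPs and 42.8, 46.3 and 40.2 CPM in the inputs, higher than input in both precipitations (log2 fold change 1.24 ± 0.18 SE, edgeR adjusted p = 0.000255 for CELF2-KI RIP) with a log2 fold change of -0.14 between them. Tunar, Sox2ot and Rmst were not called in any comparison, with log2 fold changes over input in CELF2-KI RIP of 0.05, -0.13 and -0.87.

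Of the imprinted or locus-antisense RNAs, 4 were tested. Peg13, a paternally expressed RNA in an intron of Trappc9 that is active in brain, was at 725, 767 and 739.5 CPM in the CELF2-KI RIPs, 279, 289 and 329.6 CPM in the IgG RIPs and 307, 294 and 324 CPM in the inputs. The CELF2-KI RIPs lay above all controls (log2 fold change 1.31 ± 0.10 SE, edgeR adjusted p = 1.14e-05 over IgG RIP and log2 fold change 1.27 ± 0.10 SE, edgeR adjusted p = 8.08e-06 over input), and IgG RIP and input did not differ by the test (log2 fold change -0.04, edgeR adjusted p = 0.746). Trappc9 had log2 fold changes of -0.45 over IgG RIP and 0.33 over input, neither called. Airn, which silences Igf2r and its neighbors on the paternal chromosome, was at 3.12, 5.31 and 5.799 CPM in the CELF2-KI RIPs, 7.63, 8.72 and 4.30 CPM in the IgG RIPs and 1.75, 2.28 and 1.79 CPM in the inputs and was higher than input in both precipitations (log2 fold change 1.28 ± 0.33 SE, edgeR adjusted p = 0.00746 for CELF2-KI RIP and log2 fold change 1.82 ± 0.33 SE, edgeR adjusted p = 0.00188 for IgG RIP). The call of Airn in CELF2-KI RIP was lost with the replicate number as a block (edgeR adjusted p = 0.0110). Nctc1 was not called. Zim3 was at 0 in all CELF2-KI RIPs and at 0.625, 1.68 and 6.59 CPM in the IgG RIPs, at least 12.05-fold lower than in IgG RIP at a floor of 3 counts per library, and IgG RIP 3 held most of that signal.

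Of 4 tested RNAs of the X-inactivation center and its partners, 3 were higher in IgG RIP than in input and 0 were higher in CELF2-KI RIP than in IgG RIP. The shares of all genes were 13.7% and 11.1%. Xist, which coats the inactive X chromosome, was at 0.320, 0.770 and 0.803 CPM in the CELF2-KI RIPs, 5.07, 3.07 and 3.37 CPM in the IgG RIPs and 0.302, 0.275 and 0.453 CPM in the inputs. The IgG RIPs lay above all other libraries (log2 fold change 3.48 ± 0.43 SE, edgeR adjusted p = 0.000289 over input), and CELF2-KI RIP was lower than IgG RIP (log2 fold change -2.61 ± 0.45 SE, edgeR adjusted p = 0.000805). In IgG RIP 3 the counts of Xist were split over 2 rows, with 55.8% on the row that held all of them in every other library. Firre, which anchors chromatin near the nucleolus, was at 41.8, 36.6 and 39.2 CPM in the CELF2-KI RIPs, 92.8, 74.2 and 49.7 CPM in the IgG RIPs and 31.4, 33.1 and 28 CPM in the inputs (log2 fold change 1.23 ± 0.20 SE, edgeR adjusted p = 0.00103 for IgG RIP over input). Jpx, an activator of Xist, was at 14.2, 21.6 and 18.02 CPM in the CELF2-KI RIPs, 26.1, 19.3 and 11.7 CPM in the IgG RIPs and 6.70, 8.05 and 7.13 CPM in the inputs and was higher than input in both precipitations (log2 fold change 1.29 ± 0.27 SE, edgeR adjusted p = 0.0024 for CELF2-KI RIP). Ftx, the other activator on the list, was at 14.6, 19.7 and 22.7 CPM in the CELF2-KI RIPs, 21.5, 19.1 and 8.96 CPM in the IgG RIPs and 10.4, 10.96 and 9.46 CPM in the inputs with no call. For Firre, Jpx and Ftx, IgG RIP 3 was the lowest IgG library. Of 8 nuclear-retained RNAs, which include Xist, Firre and Airn, 5 were higher in IgG RIP than in input, beside 13.7% of all genes. The mean of the summed level of these 8 was 8163 CPM (CELF2-KI RIP), 9570 CPM (IgG RIP) and 4588 CPM (input). Most of that sum came from Malat1, Kcnq1ot1 and Meg3, which are outside the noncoding genes described here (means of 4561, 3904 and 946 CPM in IgG RIP). The sum therefore says little about Xist, Firre and Airn. The part of nuclear RNA in the rise of these X-linked RNAs was not tested.

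Of 15 tested RNAs from a list of widely expressed noncoding RNAs, 5 were lower in CELF2-KI RIP than in IgG RIP and 1 was higher. Over all genes tested, 12.4% were lower and 11.1% higher than IgG RIP, and 7.77% were lower than both controls. The 3 lower than both controls were the lncRNAs Zfas1 and Epb41l4aos and the small structural RNA Rmrp, already counted above. A single RNA of the list, as said, was higher than IgG RIP. That RNA was Tug1, which is found in both nucleus and cytoplasm and is needed in retina and testis. Tug1 was at 271, 209 and 202 CPM in the CELF2-KI RIPs, 89.1, 84.5 and 85.0 CPM in the IgG RIPs and 168, 152 and 141 CPM in the inputs. The CELF2-KI RIPs lay above all controls (log2 fold change 1.40 ± 0.13 SE, edgeR adjusted p = 2.22e-05 over IgG RIP), but the rise over input stayed under 2-fold (log2 fold change 0.56 ± 0.13 SE, edgeR adjusted p = 0.00395) and the inputs lay above the IgG RIPs. Zfas1, an RNA opposite Znfx1 whose introns yield snoRNAs, was at 2.88, 1.92 and 1.52 CPM in the CELF2-KI RIPs, 5.94, 5.05 and 9.10 CPM in the IgG RIPs and 12.8, 13.2 and 12.1 CPM in the inputs (log2 fold change -2.59 ± 0.29 SE, edgeR adjusted p = 5.24e-05 against input). Epb41l4aos was at 0.640, 0.308 and 0.535 CPM in the CELF2-KI RIPs, 2.63, 1.78 and 2.08 CPM in the IgG RIPs and 3.32, 3.85 and 4.17 CPM in the inputs (log2 fold change -2.93 ± 0.35 SE, edgeR adjusted p = 7.46e-05 against input). Dancr, a spliced cytoplasmic lncRNA, was at 1.36, 0.924 and 0.803 CPM in the CELF2-KI RIPs, 5.25, 2.18 and 5.30 CPM in the IgG RIPs and 2.57, 2.95 and 2.54 CPM in the inputs and was lower than IgG RIP (log2 fold change -2.05 ± 0.40 SE, edgeR adjusted p = 0.0017) but not called against input (edgeR adjusted p = 0.0115).

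Of the 19 RNAs lower than both controls, 6 were small structural RNAs, 5 clone-named lncRNAs, 4 pseudogenes, 3 opposite-strand RNAs and 1 a named lncRNA, Pantr1. Ubb-ps, a ubiquitin pseudogene, was at 0 in every CELF2-KI RIP and at 0.625, 0.991 and 1.86 CPM in the IgG RIPs and 2.05, 1.52 and 1.601 CPM in the inputs, at least 4.712-fold and 7.001-fold lower at a floor of 3 counts per library. H2bu1-ps, a histone pseudogene, was at 2.64, 1.85 and 1.70 CPM in the CELF2-KI RIPs, 5.57, 8.42 and 9.24 CPM in the IgG RIPs and 23.2, 22.2 and 28.4 CPM in the inputs (log2 fold change -3.57 ± 0.26 SE, edgeR adjusted p = 4.6e-06 against input), and the ribosomal protein pseudogene Rps15a-ps6 was at 1.20, 2.46 and 2.14 CPM in the CELF2-KI RIPs, 4.57, 3.47 and 6.81 CPM in the IgG RIPs and 9.71, 10.99 and 11.03 CPM in the inputs. Reads of such pseudogenes can be shared with their parent genes. The clone-named 2810029C07Rik was at 0.879, 0.847 and 0.892 CPM in the CELF2-KI RIPs, 3.25, 2.08 and 5.88 CPM in the IgG RIPs and 4.48, 4.91 and 4.56 CPM in the inputs (log2 fold change -2.10 ± 0.39 SE, edgeR adjusted p = 0.00129 against IgG RIP). 2410006H16Rik was at 3.36, 2.08 and 3.03 CPM in the CELF2-KI RIPs, 9.13, 6.64 and 9.03 CPM in the IgG RIPs and 16.5, 17.1 and 15.9 CPM in the inputs, and 1110038B12Rik was at 1.84, 1.85 and 1.61 CPM in the CELF2-KI RIPs, 5.38, 3.86 and 2.58 CPM in the IgG RIPs and 10.1, 9.55 and 10.2 CPM in the inputs. H2bu1-ps, Rps15a-ps6, 2410006H16Rik and 1110038B12Rik were named after their values were seen. The remaining ones were 2810025M15Rik, Gm15706, Gm6793 and Lppos. In every fit that left out 1 library 13 of the 19 were called, all 19 were called with either of the scalings named above, and 2810025M15Rik, Gm15706, Lppos and 1110038B12Rik were lost with the replicate number as a block. The hemoglobin mRNAs Hba-a1 and Hbb-bt of erythroid cells moved the same way, with mean summed levels of 41.0 CPM (CELF2-KI RIP), 167 CPM (IgG RIP) and 417 CPM (input), and their part in these differences was not tested.

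**Figure D4:**
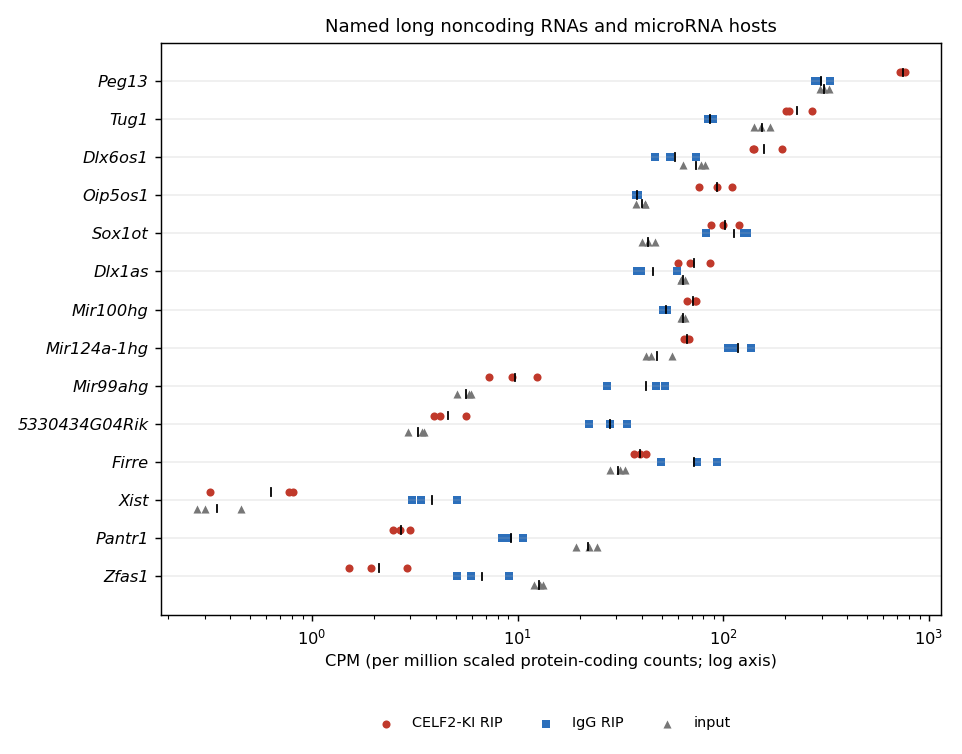
Level of 14 named lncRNAs and microRNA host RNAs in every library, in CPM on a log axis. Symbols are single libraries, 3 per condition, and short black bars are condition means. Peg13, Dlx6os1 and Oip5os1 are highest in CELF2-KI RIP, Mir99ahg, 5330434G04Rik and Xist are highest in IgG RIP, and Pantr1 and Zfas1 are highest in input.

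Many lncRNAs are also the precursors of microRNAs, which are cut out of the host in the nucleus, so the host RNA that was counted here is not the microRNA. Of 1185 microRNA hairpin rows, 1183 were at 0 in every library and 1 reached the count limit. RefSeq hairpins were matched to the spans of the noncoding genes, and the hairpins of a single chromosome were then left out. This gave 29 hosts of 48 hairpins, of which 24 hosts were tested. The counts and shares of hosts and of their hairpins given below cover this reduced set only. The mature sequences of hosts whose values are described next are given 5′ to 3′ with bases 2 to 8, the seed that pairs with target mRNAs, in capitals (RefSeq, GRCm38.p6).
mmu-miR-433-3p (6430411K18Rik, chr12:109591781-109591802, plus strand): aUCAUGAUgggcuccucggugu
mmu-miR-101a-3p (E130102H24Rik, chr4:101346957-101346977, minus strand): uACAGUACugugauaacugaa
mmu-miR-325-3p (5330434G04Rik, chrX:105379105-105379126, minus strand): uUUAUUGAgcaccuccuaucaa
mmu-miR-199a-3p (Dnm3os, chr1:162217883-162217904, plus strand): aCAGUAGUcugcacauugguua
mmu-miR-214-3p (Dnm3os, chr1:162223438-162223459, plus strand): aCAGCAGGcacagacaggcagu
mmu-miR-29b-3p (A330023F24Rik, chr1:195037091-195037113, plus strand): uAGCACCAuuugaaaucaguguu
mmu-miR-29c-3p (A330023F24Rik, chr1:195037600-195037621, plus strand): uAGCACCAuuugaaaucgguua
mmu-let-7b-5p (Lncppara, chr15:85707325-85707346, plus strand): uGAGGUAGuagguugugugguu
mmu-let-7c-5p (Lncppara, chr15:85706616-85706637, plus strand): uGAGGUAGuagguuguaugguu
mmu-miR-9-5p (Mir9-3hg, chr7:79505279-79505301, plus strand): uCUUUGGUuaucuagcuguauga
mmu-miR-9-5p (C130071C03Rik, chr13:83738821-83738843, plus strand): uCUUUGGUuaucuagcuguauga
mmu-miR-16-5p (Dleu2, chr14:61631936-61631957, minus strand): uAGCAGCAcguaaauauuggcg
mmu-miR-322-5p (C430049B03Rik, chrX:53054306-53054327, minus strand): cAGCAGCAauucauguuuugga
miR-29b-3p and miR-29c-3p share a seed, as do let-7b-5p and let-7c-5p, and the hosts Mir9-3hg and C130071C03Rik carry the same mature miR-9-5p. Dleu2 and C430049B03Rik, from different chromosomes, carry miR-16-5p and miR-322-5p, which also share a seed. UGUGU or UGUUU occurred in 14 of the 37 hairpins of tested hosts (37.8%) and in 26.8% of all 1005 hairpins. For C430049B03Rik and a few other hosts the strand was not given, so the host strand could not be compared with that of the hairpin.

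Of the 24 tested hosts, 2 (8.33%) were higher and 4 (16.7%) lower in CELF2-KI RIP than in IgG RIP, beside 11.1% and 12.4% of all genes. CELF2-KI RIP exceeded input for 3 (12.5%), and IgG RIP exceeded it for 6 (25%), beside 16.7% and 13.7% of all genes. These counts are small, so nothing is read from them about hosts as a group, and the single RNAs are given as a description. The hosts outside the microRNA host list were named after their values were seen. 6430411K18Rik, the maternally expressed RNA opposite Rtl1 that carries miR-433, was at 11.8, 12.8 and 12.2 CPM in the CELF2-KI RIPs, 6.005, 7.04 and 4.66 CPM in the IgG RIPs and 4.94, 6.21 and 7.26 CPM in the inputs (log2 fold change 1.06 ± 0.22 SE, edgeR adjusted p = 0.00252 over IgG RIP and log2 fold change 1.003 ± 0.21 SE, edgeR adjusted p = 0.00253 over input). E130102H24Rik, which carries miR-101a, was at 2.32, 2.85 and 2.59 CPM in the CELF2-KI RIPs, 0.688, 1.09 and 0.358 CPM in the IgG RIPs and 1.08, 1.54 and 1.31 CPM in the inputs (log2 fold change 1.89 ± 0.42 SE, edgeR adjusted p = 0.00397 over IgG RIP), with no call over input. The reverse held for 5330434G04Rik, the host of miR-325, at 3.92, 5.62 and 4.19 CPM in the CELF2-KI RIPs, 28.02, 33.9 and 22.2 CPM in the IgG RIPs and 3.51, 3.41 and 2.94 CPM in the inputs. It was higher in IgG RIP than in the other conditions with no overlap (log2 fold change -2.61 ± 0.22 SE, edgeR adjusted p = 1.44e-05 for CELF2-KI RIP over IgG RIP, and log2 fold change 3.09 ± 0.22 SE, edgeR adjusted p = 3.79e-05 for IgG RIP over input). Dnm3os, which carries miR-199a and miR-214 opposite Dnm3, was also highest in IgG RIP, at 1.76, 5.46 and 4.01 CPM in the CELF2-KI RIPs, 13.6, 19.02 and 10.0 CPM in the IgG RIPs and 2.59, 3.77 and 2.18 CPM in the inputs.

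A330023F24Rik, the host of miR-29b-2 and miR-29c, was at 12.4, 22.5 and 18.6 CPM in the CELF2-KI RIPs, 19.3, 21.9 and 21.0 CPM in the IgG RIPs and 7.37, 7.95 and 7.02 CPM in the inputs, above input in both precipitations (log2 fold change 1.26 ± 0.21 SE, edgeR adjusted p = 0.000516 and log2 fold change 1.48 ± 0.21 SE, edgeR adjusted p = 0.000501). Lncppara, the host of let-7b and let-7c-2, was at 24.8, 20.4 and 19.4 CPM in the CELF2-KI RIPs, 37.7, 35.7 and 27.0 CPM in the IgG RIPs and 14.7, 14.3 and 15.1 CPM in the inputs (log2 fold change 1.19 ± 0.16 SE, edgeR adjusted p = 0.000463 for IgG RIP over input). Dleu2 was at 1.04, 0.770 and 0.892 CPM in the CELF2-KI RIPs, 3.06, 1.78 and 2.15 CPM in the IgG RIPs and 1.22, 1.10 and 1.13 CPM in the inputs, lower in CELF2-KI RIP than in IgG RIP (log2 fold change -1.38 ± 0.35 SE, edgeR adjusted p = 0.00845), a call that was lost with the replicate number as a block (edgeR adjusted p = 0.0151). C430049B03Rik was at 1.36, 1.001 and 0.803 CPM in the CELF2-KI RIPs, 1.13, 2.08 and 5.01 CPM in the IgG RIPs and 0.540, 0.848 and 0.598 CPM in the inputs with no call. Mir124a-1hg, Mir124-2hg and Mir99ahg are named as hosts, but no hairpin was placed in them here, so they are outside the counts over 24 hosts. Mir9-3hg was at 40.5, 45.3 and 46.8 CPM in the CELF2-KI RIPs, 58.0, 37.5 and 44.1 CPM in the IgG RIPs and 36.5, 33.7 and 34.0 CPM in the inputs with no call, and C130071C03Rik was at 17.8, 14.5 and 16.1 CPM in the CELF2-KI RIPs, 25.8, 19.3 and 21.1 CPM in the IgG RIPs and 19.6, 19.98 and 17.6 CPM in the inputs with no call. Mir124a-1hg was at 64.3, 67.8 and 66.4 CPM in the CELF2-KI RIPs, 136, 111 and 105.3 CPM in the IgG RIPs and 41.9, 44.6 and 56.3 CPM in the inputs, higher in IgG RIP than in input (log2 fold change 1.30 ± 0.14 SE, edgeR adjusted p = 0.000182), while Mir124-2hg was not called in any comparison. For Mir124a-1hg, and for Mir99ahg, which is described next, the lowest IgG RIP was above all other libraries. Mir99ahg, the host of the miR-99a, let-7c and miR-125b cluster, was the 1 RNA of the microRNA host list lower in CELF2-KI RIP than in IgG RIP, at 9.36, 12.5 and 7.23 CPM in the CELF2-KI RIPs, 52.2, 46.8 and 27.0 CPM in the IgG RIPs and 5.77, 5.95 and 5.04 CPM in the inputs (log2 fold change -2.11 ± 0.27 SE, edgeR adjusted p = 0.000127). Its relative Mir100hg, the host of the miR-100, let-7a-2 and miR-125b-1 cluster, was at 74.0, 66.3 and 73.0 CPM in the CELF2-KI RIPs, 53.1, 51.1 and 53.4 CPM in the IgG RIPs and 65.1, 62.4 and 62.8 CPM in the inputs, with differences under 2-fold in every comparison. Mir22hg was higher than input in CELF2-KI RIP (log2 fold change 1.11 ± 0.28 SE, edgeR adjusted p = 0.0062).

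Opposite-strand RNAs could be set beside the protein-coding gene they are named after in 88 pairs (5 coding genes served in more than 1 pair). A coding gene of more than 1 pair was counted in each. In CELF2-KI RIP over IgG RIP, 4 of the RNAs and the coding gene of 16 pairs were higher, beside 11.1% of all genes. Both were higher in 0 pairs. The median log2 fold change was -0.41 for the RNAs and 0.28 for the coding genes. In IgG RIP over input, 31 of the RNAs and 3 of the coding genes were higher, beside 13.7% of all genes. Both were higher in 2 pairs, and the medians were 1.39 and 0.01. In CELF2-KI RIP over input, 25 of the RNAs and the coding gene of 15 pairs were higher, beside 16.7% of all genes. Both were higher in 4 pairs (Ptprtos, Pitpnm2os1, Rab11fip4os2 and Frs3os). The difference between RNA and partner was not tested. The RNAs Cep83os and Oip5os1 rose over IgG RIP by 1.87 and 1.29 on the log2 scale, while Cep83 had -0.84 and Oip5 0.75, neither of them called. In a pair picked after its values were seen, Slc36a1os and Slc36a1 had log2 fold changes over IgG RIP of -1.17 and 1.95, the second of which was called. Libraries were directional, but whether counting used the strand is not given in the sources used here, so reads of overlapping partners may not be fully told apart.

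**Figure D5:**
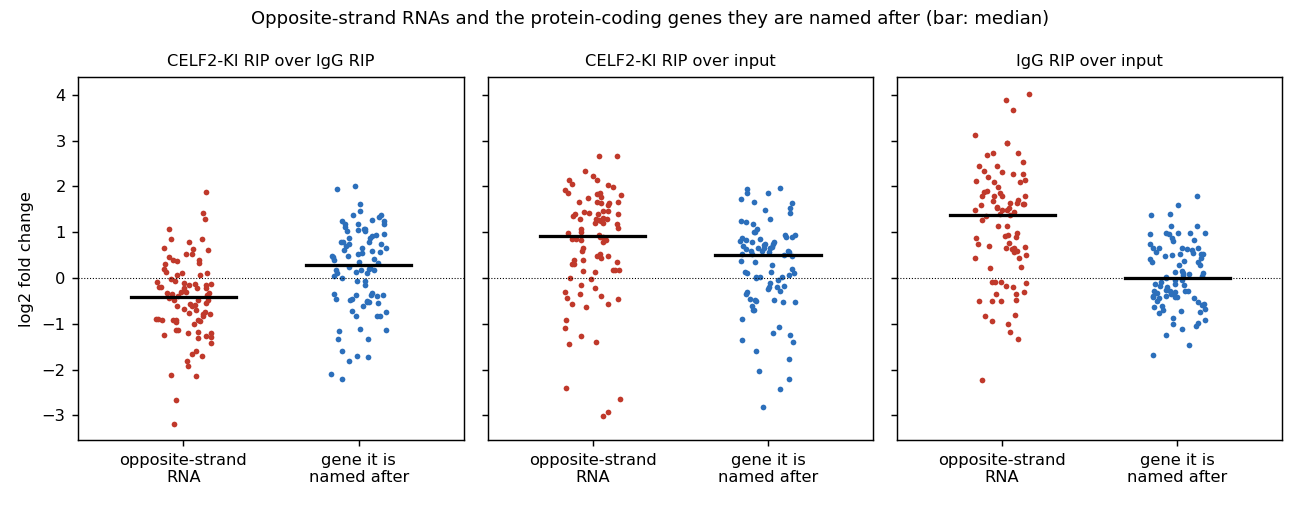
Log2 fold changes (y axis) of 88 opposite-strand RNAs (red) and of the protein-coding genes they are named after (blue) for the 3 comparisons. Each point is 1 gene and black bars are medians. In the left panel, CELF2-KI RIP over IgG RIP, the RNAs lie below the coding genes (medians -0.41 and 0.28) and in the panel of IgG RIP over input they lie above them (medians 1.39 and 0.01).

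The clone-named lncRNAs were the largest class, with 825 tested. Of these, 302 were higher in IgG RIP than in input (36.6%), 186 were higher in CELF2-KI RIP than in input (22.5%), and 17 were higher in CELF2-KI RIP than in IgG RIP (2.06%). These shares were near those of all noncoding genes tested (35.0%, 22.7% and 2.68%). The shares over all genes were 13.7%, 16.7% and 11.1%. The clone-named lncRNAs with the highest counts rose over input in both precipitations. A130077B15Rik was at 671, 1128 and 830.3 CPM in the CELF2-KI RIPs, 1808, 1978 and 1056 CPM in the IgG RIPs and 294, 358 and 277 CPM in the inputs (log2 fold change 2.38 ± 0.26 SE, edgeR adjusted p = 0.00017 for IgG RIP over input). 4930470H14Rik was at 455, 1012 and 749 CPM in the CELF2-KI RIPs, 1325, 1577 and 719 CPM in the IgG RIPs and 139.8, 181 and 148 CPM in the inputs, and A630089N07Rik was at 481, 877 and 485 CPM in the CELF2-KI RIPs, 1104, 1273 and 678 CPM in the IgG RIPs and 157, 219 and 168 CPM in the inputs. In all 3 of these RNAs every precipitated library lay above every input, IgG RIP 3 was the lowest IgG library, and CELF2-KI RIP 2 was the highest CELF2-KI library. Gm20199 had one of the 5 largest rises in IgG RIP over input, at 0, 0.693 and 2.05 CPM in the CELF2-KI RIPs, 7.26, 2.67 and 2.29 CPM in the IgG RIPs and 0, 0.0440 and 0.242 CPM in the inputs (log2 fold change 5.42 ± 1.22 SE, edgeR adjusted p = 0.00534).

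Transcribed pseudogenes had similar shares. Of 147 tested, 41 were higher in IgG RIP than in input (27.9%, against 13.7% of all genes). CELF2-KI RIP was higher than input for 35 pseudogenes (23.8%, against 16.7%) and higher than IgG RIP for 4 pseudogenes (2.72%, against 11.1%). The one with the highest counts was Mrgpra6, annotated as a pseudogene of the sensory neuron receptor family Mrgpr, at 3978, 6799 and 4806 CPM in the CELF2-KI RIPs, 9337, 10430 and 5544 CPM in the IgG RIPs and 1516, 1890 and 1563 CPM in the inputs (log2 fold change 2.35 ± 0.26 SE, edgeR adjusted p = 0.00019 for IgG RIP over input). Mrgpra6 alone made up 0.303% to 0.448% of the counts outside rRNA in CELF2-KI RIP, 0.485% to 0.905% in IgG RIP and 0.140% to 0.167% in input. The odorant receptor pseudogene Olfr856-ps1 was at 231, 519 and 409 CPM in the CELF2-KI RIPs, 757, 845 and 424 CPM in the IgG RIPs and 124, 149 and 137 CPM in the inputs, in the same order. None of these 5 RNAs had whole counts in every library, so at least part of their reads was divided among transcripts by the counting. Tmem181b-ps, by contrast, was at 228, 227 and 230.3 CPM in the CELF2-KI RIPs, 281, 222 and 196 CPM in the IgG RIPs and 161, 168 and 152 CPM in the inputs, with differences under 2-fold. Gm6654 went the other way from the group in IgG RIP, where it was at 0.1251, 0 and 0.0717 CPM, against 0.800, 1.31 and 0.714 CPM in CELF2-KI RIP and 0.778, 0.727 and 0.986 CPM in input, at least 4.032-fold higher in CELF2-KI RIP than in IgG RIP.

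The rise in IgG RIP over input was seen at every level of expression. Among genes with a mean below 1 CPM the median log2 fold change was 1.05 for 327 noncoding genes and 0.31 for 1077 coding genes. Between 3 and 10 CPM it was 1.37 for 299 noncoding genes and -0.06 for 2826 coding genes, and above 30 CPM it was 0.80 for 65 noncoding genes and 0.01 for 6069 coding genes. It was present with and without an overlapping coding gene. Of all noncoding genes tested, 35.0% were higher in IgG RIP than in input, beside 13.7% of all genes. Of 576 noncoding genes that overlapped no protein-coding gene, 32.3% were, with a median of 1.14. Of 304 that overlapped coding genes on the opposite strand only, 34.5% were, with a median of 1.38. Of 37 that overlapped a coding gene on the same strand, 51.4% were, with a median of 1.34. For the 239 others with an overlap the strand was not given, and 39.7% of them were, with a median of 1.39.

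Several genes with more than 1 row differed in which row held their counts. One of the 2 rows of 1500011B03Rik held 95.8% to 96.4% of its counts in the CELF2-KI RIPs, 78.0% to 82.6% in the IgG RIPs and 86.0% to 88.3% in the inputs, with no overlap between conditions. One of the 2 rows of Ftx held 59.0% to 68.0% in the CELF2-KI RIPs and 61.1% to 67.0% in the inputs but 37.1% to 43.5% in the IgG RIPs. Of the 6 rows of Mir100hg, the leading row held a mean of 83.3% in CELF2-KI RIP, 54.1% in IgG RIP and 85.3% in input. With 3 libraries against 3, an exact permutation test could not give a two-sided p below 0.10, so these shares are given as a description. They are estimates, since the rows of a gene share most of their reads. Only 568 of the 1811 rows (31.4%) had counts that were whole in all libraries to within 0.001, as uniquely placed reads give, and 15.4% of the pseudogene rows did.

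The 454 noncoding genes that were not tested had summed counts of 20 to 215, with a median of 47.5. Of these, 22 were at 0 in all CELF2-KI RIPs, 32 in all IgG RIPs and 1 in all inputs, and the others had counts in every condition. Fitted without the filter on low levels, which brought these genes in, 118 noncoding genes in place of 101 were lower than IgG RIP, 24 in place of 19 lower than both controls, and 13 in place of 20 higher than both. The limit of 20 counts itself was close for some rows. Fate1, Gm13483 and 1700034G24Rik had a sum of exactly 20, while BC052688 with 19.92 and G630071F17Rik with 19.51 fell just outside.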

How the data were processed

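RIP-seq libraries (rRNA-depleted, directional) came from 3 CELF2-KI RIP, 3 IgG RIP and 3 input samples. Per the labels, the authors trimmed reads, removed rRNA reads and quantified transcripts with kallisto 0.51.1. The deposited table holds these estimated counts (expected counts) per transcript row, not normalized. The rows carry RefSeq accessions, whereas the study's methods name an Ensembl transcriptome, and whether counting used strand is not given in the sources used here. Rows were matched to gene names with RefSeq on GRCm38.p6 (4954 of 5035 curated noncoding rows). Member rows were summed per gene and rounded, and all genes outside rRNA were fitted together in edgeR 4.0.16 (quasi-likelihood, 1 mean per condition, TMM factors from protein-coding genes) after a filter of 0.5 CPM in 3 libraries. Adjusted p-values (Benjamini-Hochberg) cover all 18783 genes tested. The SE is the fold change divided by the root of F. The code was tested on simulated data.

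Genes named were all tested members of 6 lists, the 10 with the largest rise over IgG RIP among those higher than both controls and the 10 with the largest fall among those lower than both, the 5 largest of each direction in IgG RIP over input, the 3 with the highest mean CPM of each class, the one with most rows and rows at the count limit. Alternatives covered scaling, filters, DESeq2 1.42.0, a test against 2-fold, row handling, a replicate block and leaving out each library. The members and lists were chosen with earlier results of these data known. Same-numbered CELF2-KI RIP and input libraries deviated together (correlations 0.173, 0.167 and 0.166 over genes). The correlations were of both signs for CELF2-KI RIP and IgG RIP (-0.141, 0.137 and -0.024). For IgG RIP and input they were positive but smaller (0.056, 0.135 and 0.071). Whether same-numbered libraries were paired cannot be told from these values. p-values measure the spread between these samples, and bounds from counts of 3 per library cover counting error only. Some marker genes are not reported here.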

Additional observations from a re-analysis of the deposited data

How the results depend on the processing

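The 246 named values gave 5070 recomputed values, since not every gene could be tested under every alternative. Values that changed sign were among those not called, and 0 called values changed sign. The share of calls moved with the scaling. With TMM over all genes, CELF2-KI RIP over IgG RIP had 20 higher and 177 lower, CELF2-KI RIP over input 113 and 49, both controls 6 higher, and IgG RIP over input 27 lower. With total counts outside rRNA, CELF2-KI RIP over IgG RIP had 16 higher and 213 lower, CELF2-KI RIP over input 141 higher, and both controls 3 higher and 29 lower. With the upper quartile, CELF2-KI RIP over IgG RIP had 18 higher and 178 lower, CELF2-KI RIP over input 164 higher and both controls 5 higher. With DESeq2 size factors, CELF2-KI RIP over input had 168 higher, IgG RIP over input 29 lower and both controls 8 higher. A test against 2-fold gave 4 higher and 20 lower over IgG RIP, 18 and 19 over input, 119 and 3 for IgG RIP over input, and 1 and 7 against both controls. With each row tested alone the counts were 11 and 25, 3 and 20, 52 and 7, and 1 and 11 in the same order. Without the filter 13 were higher than both. With rows matched by version, 19 were higher over IgG RIP, 139 over input and 11 over both, and 7 were lower in IgG RIP over input. Leaving out 1 library gave 23 to 33 higher and 49 to 165 lower over IgG RIP, 116 to 423 and 27 to 51 over input, 207 to 562 and 8 to 25 for IgG RIP over input, and 11 to 23 and 14 to 21 against both controls. The causes were not tested. The fit with the replicate number as a block gave 29 higher and 85 lower over IgG RIP, 237 and 30 over input, 340 and 15 for IgG RIP over input, and 18 and 15 against both controls. Under the block the calls lost among named genes beyond those given above were Mirt1 and 1700001G17Rik in IgG RIP over input. The DESeq2 test, a filter at 1 CPM and sums with predicted rows left every count within 1.5 times. Depth limits genes at 3 counts or fewer per library.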
